A study of Mus musculus with 2 samples.

Results

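Mir33, Mir122, Mir185 and Mir455 are hairpin genes whose miRNAs have been described as regulators of cholesterol uptake, efflux or synthesis. They were chosen by that description and by symbol, as 4 of the 2202 miRNA genes counted in the adrenal gland. The study sequenced small RNA below 30 bases from total RNA of 2 adrenal gland samples, both of the single group in the labels: females of the first-generation hybrid strain B6CASTF1/J, aged 2 months, with no treatment or engineered allele named. The tissue labels number the females differently but give a shared donor label, so that the spread between the samples may be smaller than the spread between animals. With no second group, the questions were how abundant each hairpin gene was in the gland, how far its level differed between the samples, and which sequences its miRNAs carry.

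The adrenal cortex makes steroid hormones from cholesterol. In mice much of it is taken up from HDL by the receptor SR-BI (gene Scarb1), and some comes from synthesis in the cell, which the transcription factor SREBP-2 (Srebf2) switches on. The transporters ABCA1 and ABCG1 export cholesterol, SOAT1 stores it as esters, and the protein StAR moves it into mitochondria. Mir33 lies inside Srebf2 and its miRNA is known for repressing Abca1. Mir122 is the liver miRNA whose loss lowers cholesterol synthesis there, Mir185 has been described as acting on SR-BI, and Mir455 as acting on SR-BI in steroidogenic cells.

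The mature sequences show which mRNA letters each miRNA can pair with. RefSeq (build GRCm38.p6) gave 5 mature sequences for 3 of the genes, shown 5′ to 3′ with the seed, bases 2 to 8, in capitals.
miR-33-5p: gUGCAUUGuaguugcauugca
miR-33-3p: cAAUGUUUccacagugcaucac
miR-185-3p: aGGGGCUGgcuuuccucuggu
miR-455-5p: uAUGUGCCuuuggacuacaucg
miR-455-3p: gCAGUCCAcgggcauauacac
No seed was shared among these 5. In the 1738 mature sequences of the same table, the seeds of miR-33-5p, miR-33-3p and miR-455-3p occurred in no other gene. Only 1018 of the 2202 counted genes had a mature sequence there, so the seeds of the rest could not be compared. The seed of miR-455-5p was also that of miR-5129-3p (aAUGUGCCugugcaucucuucc), whose gene Mir5129 had 19 counts in replicate 1 and 10 in replicate 2. The seed of miR-185-3p was also that of miR-7048-5p (cGGGGCUGagaggugaggaagc), whose gene Mir7048 had 2 counts and 0 counts. At 0 counts up to 3 remain possible, which is 1.32 CPM in replicate 2 (CPM, counts scaled to a library total of 1000000). Mir122 and miR-185-5p are named here without a sequence.

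Mir33 is shown as a whole hairpin because the seeds of both arms matched mRNAs of cholesterol handling. Those of both Mir455 arms did so too, but no hairpin sequence of Mir455 was available here. The 69 bases of Mir33 lie at chr15:82198122-82198190 on the plus strand, and the capitals mark miR-33-5p and then miR-33-3p.
Mir33 hairpin: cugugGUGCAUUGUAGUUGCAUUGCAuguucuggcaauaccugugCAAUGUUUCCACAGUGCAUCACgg
The counts are per hairpin gene, so reads of the 5p and the 3p arm could not be told apart for any of the genes. None of the 4 hairpins shared a stretch of 20 bases with any of the 2201 other annotated miRNA transcripts. Shorter stretches and stretches with a mismatch were not searched.

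Mir33, Mir185 and Mir455 are intronic on the strand of their host (GENCODE M21, mm10). Mir33 was in an intron of all 3 Srebf2 transcripts that span it, and in intron 16 of the transcript with the longest exon sequence, which has 19 exons, 336 bases after the exon before it. Mir185 (chromosome 16, 18327401 to 18327465, minus strand) was in an intron of all 10 spanning transcripts of Tango2, a gene named for transport and Golgi organization, and in intron 1 of the longest of them. Mir455 (chromosome 4, 63256851 to 63256932, plus strand) was in an intron of all 4 spanning transcripts of Col27a1, which encodes a cartilage collagen. In the longest of these, with 61 exons, it lay in intron 10, 128 bases before the next exon. No other miRNA gene lay within 10000 bases of any of the 4 genes, and no annotated transcript overlapped any of them on the other strand.

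**Figure D1:**
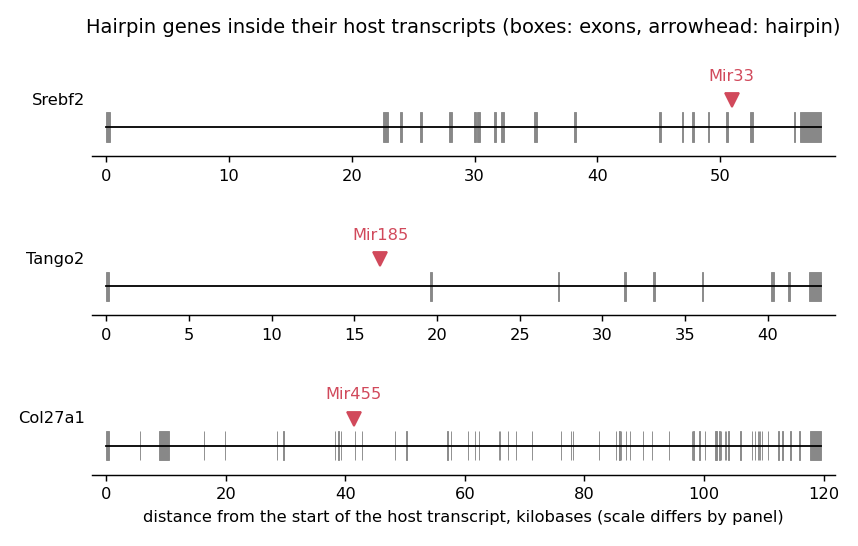
Position of Mir33, Mir185 and Mir455 (arrowheads) along the longest coding transcripts of their hosts Srebf2, Tango2 and Col27a1, with exons as boxes and distance from the transcript start in kilobases on the horizontal axis; the scale differs by panel. Each arrowhead stands over an intron: Mir33 near the end of its host, Mir185 in the long first intron of Tango2 and Mir455 in the first part of Col27a1.

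Levels are sense-strand counts in CPM, taken over all miRNA genes of a library, with the mean ± SD over n = 2. Totals were 2839732 gene counts in replicate 1 and 2280028 in replicate 2, 30.6% and 26.3% of the reads in each table. A single count was worth 0.352 and 0.439 CPM. All 4 genes were detected, with at least 10 counts in both libraries, as were 342 of the 2202 genes. Together the 4 held 0.641% of the gene counts in replicate 1 and 0.650% in replicate 2. That near-equal sum was made up differently: Mir122 gave 58.1% of it in replicate 1 and 36.3% in replicate 2, and Mir185 2.12% and 18.4%. None of the 4 had an antisense count. The adrenal cortex is defined by mRNAs that this assay does not measure, and Mir375, known from neuroendocrine cells such as those of the medulla, ranked 7 of all genes at 39421 and 37780 CPM.

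Mir122 had 10567 counts in replicate 1 and 5377 in replicate 2, or 3721 and 2358 CPM. Its mean of 3040 ± 964 CPM ranked 46 among all genes. It was therefore the most abundant of the 4 in replicate 1 but not in replicate 2. Its neighbours in mean level were Mir423 (3311 ± 443 CPM) above it and Mir93 (2807 ± 1069 CPM) below it, and neither differed from it beyond the SDs.

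Mir455 had 7169 and 6610 counts, or 2525 and 2899 CPM, a mean of 2712 ± 265 CPM at rank 52. It varied least of the 4, with an SD of 9.77% of the mean against 31.7% for Mir122, 32.7% for Mir33 and 112% for Mir185. Mir122 and Mir455 exchanged their order: Mir122 was 1.47-fold the higher in replicate 1, and Mir455 1.23-fold the higher in replicate 2. Per base of hairpin (66 and 82 bases) they were at 35.7 and 35.4 CPM per base in replicate 2, so the order in that library depended on the length. Mir107 (2745 ± 1138 CPM) stood next above Mir455 and Mir324 (2647 ± 843 CPM) next below, within the SDs.

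Mir185 had 386 counts in replicate 1 and 2725 in replicate 2, or 136 and 1195 CPM. The SD exceeded the mean (665.5 ± 749 CPM), so the rank of 102 by mean hides rank 171 in replicate 1 and rank 76 in replicate 2. It was below Mir455 in both libraries, by 18.6-fold and 2.43-fold. The genes next to it in mean level, Mir770 (666.0 ± 24.5 CPM) and Mir872 (637 ± 96.6 CPM), varied far less between the libraries.

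Mir33 was the least abundant, with 77 counts in replicate 1 and 99 in replicate 2. These gave 27.1 CPM (exact Poisson 95% interval 21.4 to 33.9) and 43.4 CPM (35.3 to 52.9), a mean of 35.3 ± 11.5 CPM at rank 242. The intervals cover counting error only and did not overlap. Mir185 was above it 5.01-fold and 27.5-fold, and Mir455 93.1-fold and 66.8-fold. Among the 4, the order Mir455, Mir185, Mir33 was thus the same in both libraries, in CPM and per base. In CPM only the place of Mir122 against Mir455 changed, and per base Mir122 was the higher in both. Mir1941 (35.6 ± 6.06 CPM) and the hormone-responsive Mir212 (34.5 ± 8.48 CPM) stood next to Mir33 in mean level, within the SDs.

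**Figure D2:**
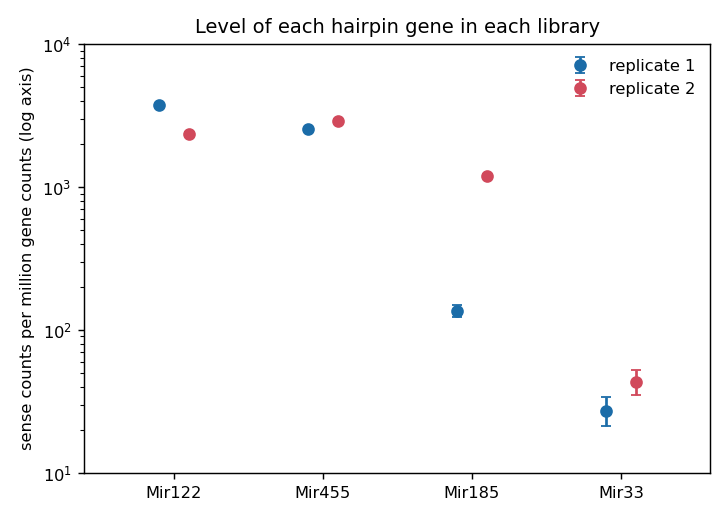
Level of each gene in CPM (log axis) in replicate 1 (blue) and replicate 2 (red), with exact Poisson 95% intervals as bars. Mir122 and Mir455 lie between 2358 and 3721 CPM and cross, Mir185 is far apart at 136 and 1195 CPM, and Mir33 lies lowest at 27.1 and 43.4 CPM.

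The difference between the libraries was tested gene by gene, over the 369 genes whose mean count reached 10, by an exact binomial test (two-sided) of the split of counts expected from the library totals. A gene passed if it differed 2-fold or more with a Benjamini-Hochberg adjusted p under 0.05. The test compares 2 libraries and covers counting error only. Of the 4 genes, 1 passed, Mir185. Among all tested genes 18.7% passed, 8.67% as higher in replicate 2 and 10% as lower, so 1 of 4 is near the background.

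Mir185 was 8.79-fold higher in replicate 2 (95% interval 7.90 to 9.81; log2 ratio 3.14). Its adjusted p by the exact binomial test was computed as 0, below the smallest number the software holds. The size of its ratio ranked 10 of 369, and 7 of the 234 genes whose mean count reached 100 differed by at least 8-fold. For scale, the median size of the log2 ratio was 0.45, and the biological coefficient of variation that edgeR estimated over the 369 genes was 44.8%.

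The 3 genes of nearest log2 ratio to that of Mir185, at mean counts of 100 or more, over these 2 samples, were Mir144 (3.02), Mir99b (1.54) and Mir331 (1.51). Mir144 is an erythroid miRNA, with 107 CPM in replicate 1 and 873 CPM in replicate 2. Of 4 listed erythroid markers 3 were counted, Mir451a, Mir144 and Mir486. They summed to 643 CPM in replicate 1 and 14488 CPM in replicate 2, most of it from Mir451a (469 and 13557 CPM). Of these 3, 2 passed as higher in replicate 2, while Mir486 stood at 65.9 and 58.3 CPM, and none was at 0. The muscle markers moved the other way, from 953 CPM to 6.58 CPM in sum. The 3 of 10 that were tested, Mir206, Mir499 and Mir208b, reached the mean count of 10 only through replicate 1. Another 3 (Mir133a-1, Mir133a-2 and Mir133b) were at 0 in both libraries. Reads labelled as multimapping were held apart from the gene counts, so a 0 here need not mean absence. The white cell markers summed to 2686 and 2028 CPM, and 1 of 5 passed, as lower in replicate 2. What part these cells have in the difference of Mir185 was not tested. In bulk tissue, fewer cells of a type and less RNA per cell cannot be told apart.

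Mir122 was 1.58-fold lower in replicate 2 (95% interval 1.53 to 1.63 as replicate 1 over replicate 2; log2 ratio -0.66) and did not reach 2-fold, with an adjusted p of 4.51e-169 by the exact binomial test. As the liver is its known source, the other liver markers were set beside it. Mir192 was at 31.3 and 30.7 CPM, Mir194-2 at 40.5 and 37.3 CPM, and Mir194-1 had 1 and 3 counts. By these counts Mir122 was far above the rest of its list in both libraries. Reads that fit both Mir194-1 and Mir194-2 may be missing from their counts. The log2 ratios of Mir192 and Mir194-2 were -0.03 and -0.12 (adjusted p = 0.960 and 0.650, exact binomial test). Whether Mir122 reads came from liver RNA was not tested. The genes nearest in log2 ratio were Mir137 (-0.65), Mir27a (-0.63) and Mir3099 (-0.68). The position of Mir122 (chromosome 18, 65248861 to 65248926, plus strand) is exonic in a transcript of the long noncoding gene AC157910.3.

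Mir33 was 1.60-fold higher in replicate 2 (95% interval 1.18 to 2.19; log2 ratio 0.68; adjusted p = 0.00458, exact binomial test) and did not reach 2-fold. Of the 369 tested genes, 251 had a log2 ratio no larger in size than that of Mir33. Mir320 (0.68), Mir673 (0.67) and Mir134 (0.68) were nearest to it. Mir455 differed by 1.15-fold (1.11 to 1.19; log2 ratio 0.20; adjusted p = 1.88e-15, exact binomial test), again short of 2-fold. Its nearest genes were Mir145a (0.20), Mir10a (0.20) and Mir374b (0.19). Since Mir455 sits in a collagen gene of cartilage, cartilage and stromal markers were read with it. Mir140, the miRNA best known from cartilage, passed as lower in replicate 2 (3101 and 1413 CPM), whereas Mir455 was at 2525 and 2899 CPM. The other tested markers of that list, Mir143, Mir145a, Mir214 and Mir199a-2, had log2 ratios from 0.14 to 0.44 and did not pass. Mir199a-1 had 0 counts in both libraries. Reads that fit both Mir199a-1 and Mir199a-2 may be missing from their counts. The whole list summed to 26268 and 26929 CPM, and its part in the level of Mir455 was not tested.

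**Figure D3:**
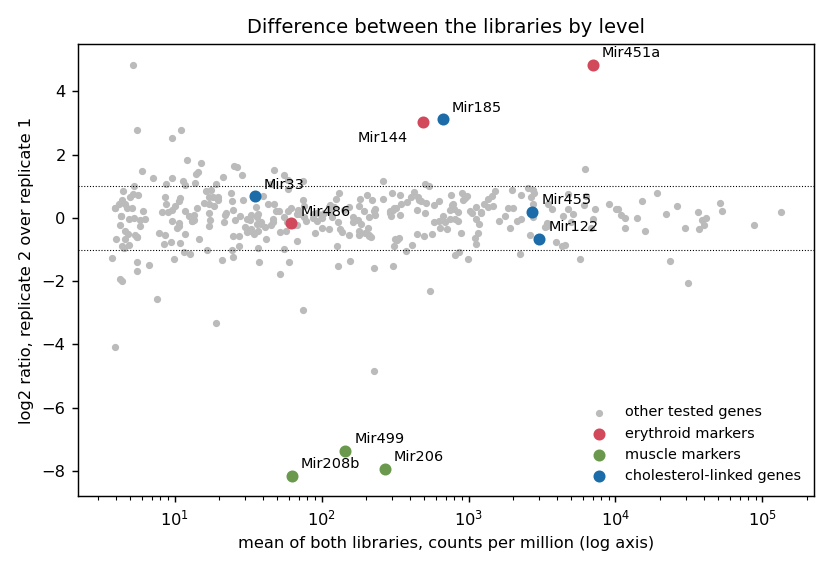
Log2 ratio of replicate 2 over replicate 1 against the mean level (CPM, log axis) for 369 tested miRNA genes, with the 4 cholesterol-linked genes in blue, erythroid markers in red and muscle markers in green; dotted lines mark 2-fold. Mir33, Mir122 and Mir455 lie between the lines, and Mir185 lies at 3.14 beside Mir144 at 3.02.

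Other miRNAs described as acting on cholesterol handling were read from 3 lists ordered by step, 32 genes in all. Of these 26 were detected and 27 tested, with 1 passing as higher in replicate 2 and 6 as lower, beside 8.67% and 10% of all 369 tested genes. Among the 6, Mir26a-1 reached a mean count of 10 only through replicate 1. The median log2 ratio of the 27 was -0.28, beside 0.07 over all tested genes.

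For uptake by SR-BI, on which Mir455 and Mir185 have been described as acting, 3 of 5 tested genes passed, each as lower in replicate 2, beside 10% of all tested genes. Mir125a, described together with Mir455 in steroidogenic cells, went from 8199 to 3341 CPM (log2 ratio -1.30). Mir455 and Mir125a thus had different ratios, 1.15 and 0.407 of replicate 2 over replicate 1. The myeloid miRNA Mir223 had 377 and 40 counts, and Mir24-2 had 644 and 199. Mir24-2 shares a stretch with Mir24-1, Mir3074-1 and Mir3074-2. Reads that fit more than 1 of these genes may be missing, so its counts are uncertain. Mir24-1 (85.6 and 51.3 CPM) and Mir96 (15.8 and 23.7 CPM) did not pass.

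For efflux through ABCA1 and ABCG1, 14 of 19 genes were tested, with 1 higher in replicate 2, Mir144, and 3 lower, Mir26a-2, Mir26a-1 and Mir128-1, beside 18.7% of all tested genes in either direction. Mir26a-2 (1253 and 35 counts) and Mir26a-1 (24 and 6 counts) share a mature miRNA, Mir128-1 (100 and 34 counts) shares a stretch with Mir128-2, and Mir27a with Mir27b. Reads labelled as multimapping were held apart from the gene counts, 28.8% of reads in replicate 1 and 25.3% in replicate 2. Reads that fit both copies may thus be missing from these counts, which are uncertain. The most abundant genes of the list were Mir10b (14056 and 13906 CPM), Mir27b (5886 and 3221 CPM), Mir93 (2051 and 3563 CPM) and Mir145a (1125 and 1292 CPM), none of which passed. Mir33 itself, at 27.1 and 43.4 CPM, was lower than all 4 in both libraries.

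For synthesis and the control of SREBP, the factor that turns on cholesterol genes, 10 of 10 genes were tested and only Mir223 passed, beside the same 18.7%. Mir29a led the list (6601 and 7950 CPM), followed by Mir29c (1146 and 1269 CPM), Mir182 (720 and 876 CPM) and Mir183 (527 and 370 CPM). Mir122, at 3721 and 2358 CPM, thus stood between Mir29a and Mir29c in both libraries. Mir29c shares a stretch with Mir29b-1 and may have lost reads that fit both.

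**Figure D4:**
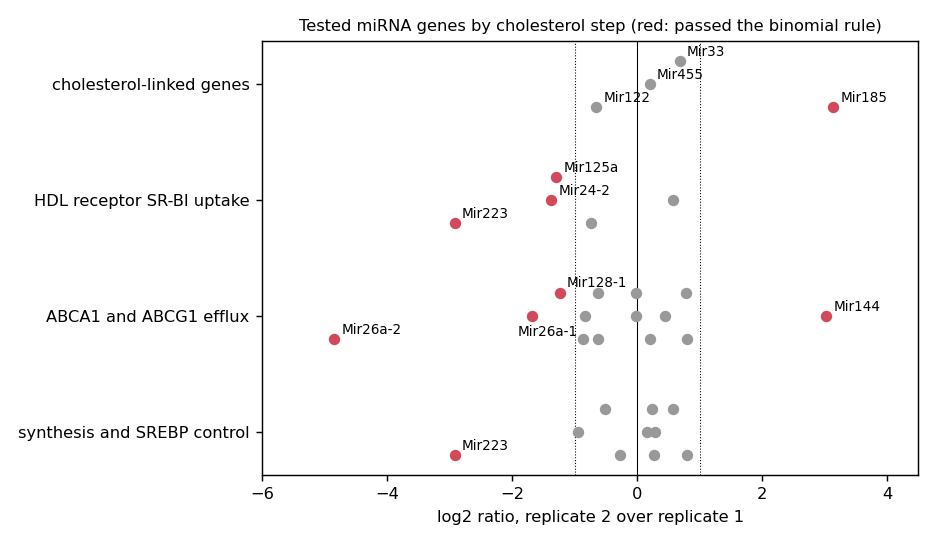
Log2 ratio of replicate 2 over replicate 1 for the cholesterol-linked genes and for the tested genes of 3 lists of cholesterol steps, in red where the binomial rule was passed; dotted lines mark 2-fold and points are spread vertically for legibility. Mir185 and Mir144 are the red points right of the lines, and the 3 SR-BI genes that passed lie on the left.

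The seeds were then matched to 18 mRNAs of cholesterol supply. A match is the 7-base reverse complement of bases 2 to 8, on the mRNA strand, in the longest annotated 3′ UTR of each gene. The motifs were CAATGCA for miR-33-5p, AAACATT for miR-33-3p, CAGCCCC for miR-185-3p, GGCACAT for miR-455-5p and TGGACTG for miR-455-3p. No mRNA was measured here, so a match is a description of letters and not of binding. At least 1 match was present in 9 of the 18 mRNAs; the 3′ UTRs of the 18 had a median of 1576 bases against 960 over 21010 protein-coding genes.

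miR-33-5p matched 2 of 18 mRNAs (11.1%, beside 7.11% of all genes), Abca1 with 3 matches and Abcg1 with 2. The Abca1 and Abcg1 stretches are shown because the matches stand side by side, with the matched letters in capitals.
Abca1, chr4:53033783-53033812, minus strand, mm10: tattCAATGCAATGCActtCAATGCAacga
Abcg1, chr17:31114998-31115022, plus strand, mm10: aacgCAATGCAacgCAATGCAgaca
In Abca1 the matches spanned 22 bases, from base 135 to base 156 of the 3′ UTR, and the first 2 overlap each other. Of 2322 genes with a 3′ UTR of 80% to 125% of its length, 15.7% held a match and 3 held as many, Abca1 included. For Abcg1, 17.9% of 1886 genes of like length held a match and 2.28% held 2 or more. Over all genes, 15 held 3 or more.

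miR-33-3p, from the other arm, matched 5 of 18 mRNAs (27.8%, beside 19.0% of all genes), namely Hmgcs1, Srebf2, Soat1, Npc1 and Stard4. The match in Srebf2, the host of Mir33, is shown because hairpin and match lie in 1 gene.
Srebf2, chr15:82205307-82205329, plus strand, mm10: tcttcatcagtgttgAAACATTc
Hmgcs1, which encodes an early enzyme of cholesterol synthesis, held 2 matches, and 4.90% of 3142 genes of like length held as many. Of the 3134 genes with a 3′ UTR like that of Srebf2, 20.3% held a match, so the Srebf2 match is common for its length. For Soat1, Npc1 and Stard4 the share of like-length genes with a match was 67.2%, 17.3% and 47.9%.

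miR-455-5p matched 1 of 18 mRNAs, Scarb1 (5.56%, beside 7.92% of all genes), and the match lay at base 152 of a 3′ UTR of 779 bases. Among 2682 genes of like length 4.33% held that match. miR-185-3p also matched Scarb1, and Soat1, Npc1 and Npc2 (22.2%, beside 14.5% of all genes). For Scarb1, 10.3% of the genes of like length held the miR-185-3p match. For Soat1, Npc1 and Npc2 that share was 38.4%, 15.7% and 25.3%. Both Scarb1 matches are shown because seeds from 2 of the genes met in the mRNA of the receptor SR-BI. Scarb1 was not alone in this. Soat1 held matches of miR-33-3p, miR-185-3p and miR-455-3p, and Npc1 held matches of miR-33-3p and miR-185-3p. The miR-185-3p match says nothing of miR-185-5p, the other arm of Mir185, which was not matched here.
Scarb1 with miR-455-5p, chr5:125277707-125277729, minus strand, mm10: cctgtccgcacgcacGGCACATg
Scarb1 with miR-185-3p, chr5:125277571-125277593, minus strand, mm10: aactctagctgctgtCAGCCCCt
miR-455-3p matched 1 mRNA, Soat1, with 2 matches in a 3′ UTR of 6534 bases (5.56% of the list, beside 11.9% of all genes). Of 549 genes of like length, 36.6% held a match and 7.47% held 2 or more. With the stricter 8-base match, which adds an A after the seed match, Abca1 and Abcg1 remained for miR-33-5p, Npc1 for miR-33-3p and Soat1 for miR-455-3p, and none of the 18 remained for miR-185-3p and miR-455-5p.

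**Figure D5:**
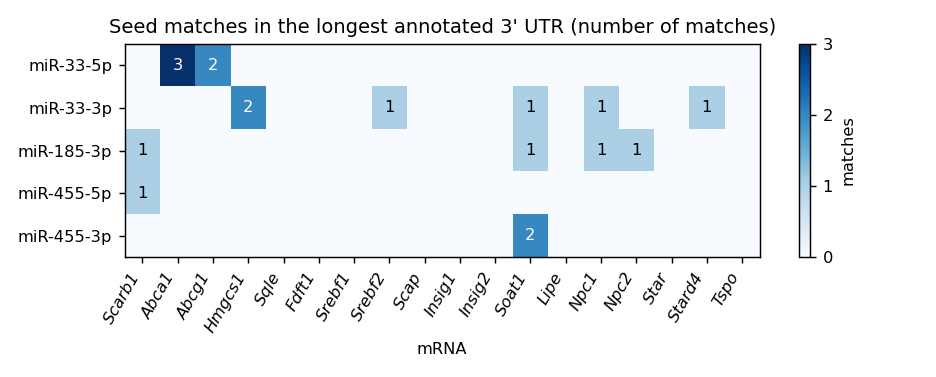
Number of 7-base seed matches (colour and digit) in the longest annotated 3′ UTR of 18 mRNAs of cholesterol supply, columns, for 5 mature miRNAs, rows; empty cells hold no match. The highest count is that of miR-33-5p in Abca1, 3 matches. Scarb1 is marked by miR-455-5p and miR-185-3p, Soat1 by miR-33-3p, miR-185-3p and miR-455-3p, and Npc1 by miR-33-3p and miR-185-3p.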

How the data were processed

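Small RNA reads were counted by the authors, who deposited a table of whole-number counts per miRNA gene for each of 2 samples. Build mm10 and annotation M21 are per the file headers of the deposited sample information; aligner and counter are not given in the sources used here. The 4 leading table rows name no gene, held 69.4% and 73.7% of the reads and stayed out of library totals. Among them, the row labelled multimapping held 28.8% of reads in replicate 1 and 25.3% in replicate 2. Genes with near-identical copies may therefore be undercounted. All 2202 identifiers matched GENCODE M21. Column 3, which had more counts than the column of the other strand, was used and scaled to CPM. Exact binomial tests with Benjamini-Hochberg adjustment (scipy 1.17.1) ran on 369 genes and were tested on simulated data. The simulated counts held counting error only, so they could not show how the test behaves with spread between animals. edgeR 4.0.16 gave TMM scaling and the dispersion, DESeq2 1.42.0 median-of-ratios scaling. The labels give 1 group, so there was no test between conditions, and intervals cover counting error only, as no molecular identifiers are stated.

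Genes were named by rule: the 4 genes, the up to 4 most abundant members and all called members of each list, neighbours in level and (at mean counts of 100 or more) in log2 ratio, seed sharers and cell type markers. Members and lists were chosen with earlier results of these data known. Some mRNAs and a list of miRNAs are not reported here. Matched letters came from RefSeq (GRCm38.p6) and GENCODE transcripts. Alternatives were 4 scalings, 2 filters, unstranded counts, leaving out a library and the 8-base match.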

Additional observations from a re-analysis of the deposited data

How the results depend on the processing

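Mir185 passed under all 6 alternative scalings, filters and strand settings of the binomial test, with log2 ratios from 3.04 to 3.19, and Mir122 (-0.75 to -0.60) and Mir455 (0.11 to 0.26) kept their direction and did not pass. Mir33 (0.59 to 0.74) was the same under 5, since its mean count is below 100. Divided by all reads of the table, the mean levels were 9.87 for Mir33, 880 for Mir122, 178 for Mir185 and 768 for Mir455 in CPM, by the larger total alone. With unstranded counts the 4 stood at 41.2, 3516, 785 and 3155 CPM in that order. Their own counts were unchanged, so these values were higher by the smaller library total alone. With a mean count of at least 100, 33 genes passed in place of 69, among fewer genes tested. TMM and median-of-ratios scaling moved the median log2 ratio of all tested genes from 0.07 to -0.02 and 0.00, and called 26 and 27 genes as higher in replicate 2. Leaving out a library gave means of 27.1 to 43.4 CPM for Mir33, 2358 to 3721 for Mir122, 136 to 1195 for Mir185 and 2525 to 2899 for Mir455. With the 8-base match the mRNA counts were 1 for miR-33-3p, 0 for miR-185-3p and 0 for miR-455-5p. The spread over all genes was 46.1% at a mean count of at least 100 and 35.7% without the muscle, erythroid and white cell markers. No paired analysis was possible because the labels give 1 group. Depth limits Mir33 most: in proportion to its level, its counting interval, from 77 and 99 counts, is wider than those of the other 3 genes.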
